A study of Arabidopsis thaliana with 12 samples.

Results

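GH3 and Aux/IAA genes are among the classical auxin-responsive genes of Arabidopsis. Of the 6 genes described here, 3 belong to the GH3 family (GH3.1, GH3.3 and WES1, the last also called GH3.5) and 3 to the Aux/IAA family (IAA20, IAA29 and IAA30). They were found as the probe sets whose only annotated gene was AT2G14960, AT2G23170, AT4G27260, AT2G46990, AT4G32280 or AT3G62100. Each gene had 1 such probe set. The 6 were among 13350 genes that the array annotation names by a probe set of their own, and among 22746 probe sets tested. All 6 entered the fit without a filter on low values.

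The RNA came from whole roots of seedlings of Arabidopsis thaliana and was measured on 12 single-colour arrays, 3 independent biological replicates for each of 4 groups. The groups were afb3-1 given KNO3, afb3-1 given KCl, Ws given KNO3 and Ws given KCl. afb3-1 is a mutant of the auxin receptor AFB3 and Ws is the wild type. All 4 groups had grown for 14 days in nitrogen-free MS salts to which 0.5 mM ammonium succinate and 3 mM sucrose were added, and were 15 days old when 5 mM of either salt was given for 2 h at the start of the light period. KCl served as the control for the potassium salt. The mutant is represented by 1 allele, and the labels do not say how many plants made up a replicate.

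Auxin is perceived by TIR1/AFB F-box proteins, which bind auxin together with Aux/IAA proteins and mark these for degradation. Aux/IAA proteins repress the auxin response factors that switch on early auxin genes, so their loss raises transcription of genes such as the GH3 and many Aux/IAA genes themselves. GH3 enzymes join amino acids to auxin and so lower the pool of the free hormone, while Aux/IAA proteins renew the repression. Both act as negative feedback, and in roots the pathway controls elongation and the formation of lateral roots. The question addressed was whether these readouts of auxin signalling moved with nitrate, and whether they differed in roots of the afb3-1 mutant.

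Values are the deposited log2 signals, on which a difference of 1 is a doubling. Arrays of a group correlated with Pearson r between 0.973 and 0.996. Fewer cells of a type and less RNA per cell cannot be told apart in whole roots. The probe sets of GH3.1, GH3.3, IAA20, IAA29 and IAA30 lay in the dimmest tertile of all probe sets (mean log2 signal up to 2.32), where summarized array signals can understate fold changes. WES1 was the exception, with a mean of 6.02. The file holds no detection calls, so it could not be said on which arrays a dim transcript was present. Of the root markers listed, only EXPA7 and EXPA18, expansins of root hair cells, had a named probe set, and their summed signal (log2) was 5.72 to 7.04 in afb3-1 KNO3, 6.37 to 6.59 in afb3-1 KCl, 5.67 to 6.91 in Ws KNO3 and 6.05 to 7.17 in Ws KCl. Of 19 shoot markers, 3 had a named probe set (RCA, LHCB4.1 and LHCB4.2, genes of photosynthesis). Their summed signal was 7.33 to 7.65 in afb3-1 KNO3, 6.72 to 8.32 in afb3-1 KCl, 6.16 to 6.97 in Ws KNO3 and 6.33 to 7.17 in Ws KCl.

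WES1 had lower values with nitrate in both genotypes, by a similar amount, but passed the test only when the genotypes were averaged, and there not under every setting. The enzyme conjugates indole-3-acetic acid and can also act on salicylic acid. In afb3-1 its log2 signal was 5.73, 5.80 and 5.31 on the KNO3 arrays, against 6.25, 5.97 and 6.34 on the KCl arrays, in the order of replicate number. Every KNO3 array lay below every KCl array. In Ws the signal was 5.66, 6.30 and 5.55 on the KNO3 arrays, against 6.52, 6.30 and 6.46 on the KCl arrays. Replicate 2 of Ws KNO3 reached the lowest KCl array, and the other two KNO3 arrays lay well below all KCl arrays. The log2 difference was −0.57 ± 0.20 (SE, n = 3) in afb3-1, a level 0.672 times that in KCl, with an adjusted p of 0.237 (limma, Benjamini-Hochberg over all probe sets). In Ws it was −0.59 ± 0.20 (SE, n = 3), or 0.663 times, with an adjusted p of 0.189. Neither passed the threshold of 0.05. Of 12 removals of single arrays, 1 led to a call in Ws (limma). Without Ws KNO3 replicate 2, the array nearest to KCl, the difference was −0.82 and its adjusted p 0.0315. Without Ws KNO3 replicate 3 it was −0.45 (adjusted p = 0.535), and without Ws KNO3 replicate 1 it was −0.50 (adjusted p = 0.410).

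With nitrate averaged over both genotypes, 6 KNO3 arrays against 6 KCl arrays, WES1 was the only member to pass. Its mean was 5.72 in KNO3 and 6.31 in KCl, a difference of −0.58 ± 0.14 (SE) with a 95% confidence interval of −0.89 to −0.27, or 0.668 times the KCl level (adjusted p = 0.0304). Of all probe sets 6.66% were called in this comparison, 3.19% as lower. At an unadjusted p under 0.05 it was also 1 of 6 members, against 16.8% of all probe sets. The call depended on how the arrays were treated. Within a treatment, the afb3-1 and Ws arrays with the same number shared deviations from their group means, and with this pairing as a random block the adjusted p was 0.0614. On the means of the 6 pairs, an alternative added after the data were seen, it was 0.204, with the same difference. Leaving out 1 array at a time gave a difference between −0.70 and −0.51. It ended the call for 6 of the 12 arrays (replicates 1 and 3 of afb3-1 KCl, replicate 3 of afb3-1 KNO3, replicate 1 of Ws KCl, and replicates 1 and 3 of Ws KNO3), with adjusted p from 0.0727 to 0.0815.

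**Figure D1:**
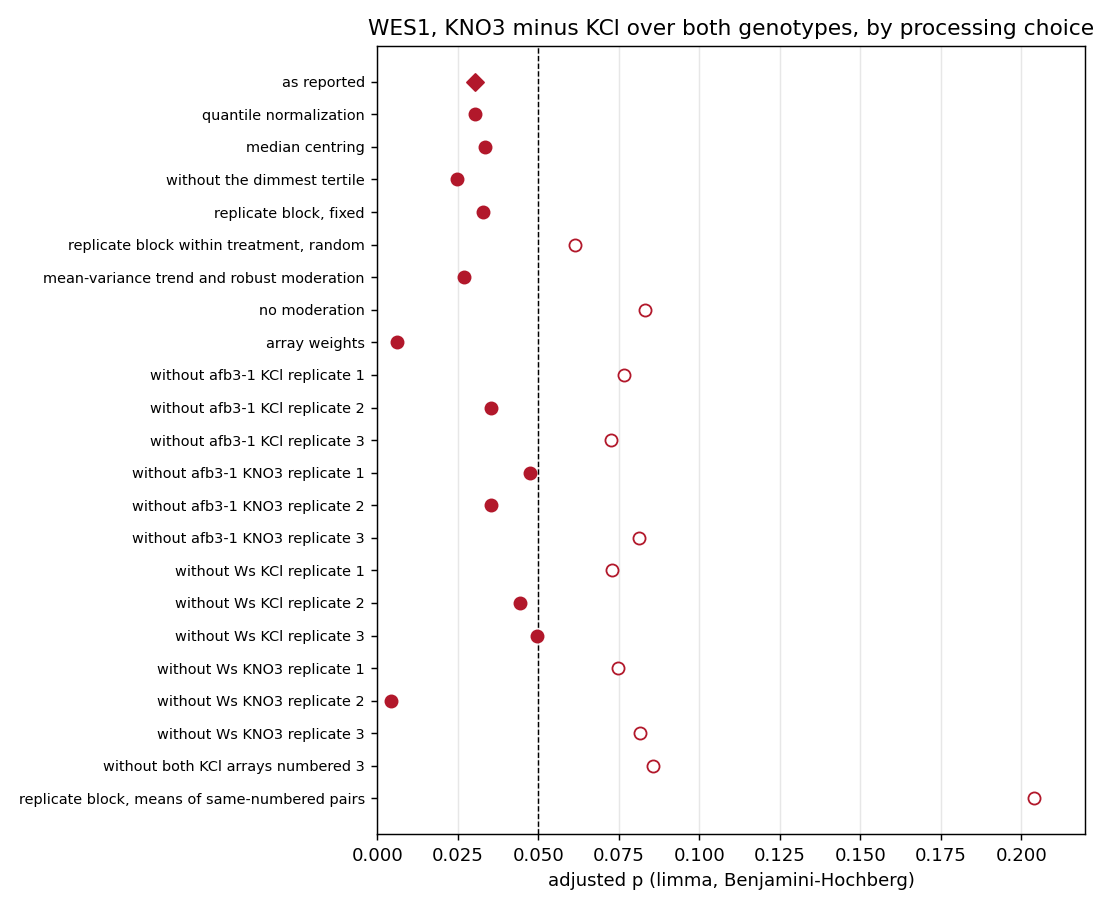
Adjusted p (x axis) for the WES1 difference, KNO3 minus KCl over both genotypes, under each processing choice (y axis); filled symbols lie at or below the dashed line at 0.05, open ones above it, and the diamond is the value as reported (0.0304). The call held under 12 of 22 alternatives and was lost under 10, with the highest value, 0.204, on the means of same-numbered pairs.

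GH3.1 and GH3.3, enzymes of the same family that attach amino acids to auxin, did not pass in any comparison. GH3.1 had log2 signals of 2.09, 2.35 and 2.09 on the afb3-1 KNO3 arrays and 2.13, 2.17 and 2.36 on the afb3-1 KCl arrays. In Ws it had 2.17, 3.00 and 2.11 with KNO3 and 2.17, 2.19 and 2.39 with KCl. Replicate 2 of Ws KNO3 stood above the other 11 arrays, which spanned only 2.09 to 2.39. The nitrate difference of GH3.1 was −0.04 ± 0.20 (SE) in afb3-1 and 0.18 ± 0.20 (SE) in Ws, and the Ws value became −0.11 without that array.

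GH3.3 had log2 signals of 1.55, 1.99 and 1.98 on the afb3-1 KNO3 arrays and 1.84, 1.88 and 2.38 on the afb3-1 KCl arrays. In Ws it had 1.44, 2.29 and 2.19 with KNO3 and 1.96, 1.97 and 2.24 with KCl. Its lowest array within KNO3 was replicate 1 in both genotypes, and its highest within KCl was replicate 3 in both. The nitrate difference was −0.19 ± 0.23 (SE) in afb3-1 and −0.08 ± 0.23 (SE) in Ws, smaller than the spread within a group. All 3 GH3 genes lay above the mean of their own group on KNO3 replicate 2 and on KCl replicate 3, in afb3-1 and in Ws alike. Counting these 3, 5 of the 6 members lay above their group mean on KNO3 replicate 2 and 4 on KCl replicate 3, in each genotype. The share of all probe sets that did so was not counted. Over all probe sets, deviations of same-numbered arrays correlated by 0.301 to 0.661 between genotypes within a treatment.

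**Figure D2:**
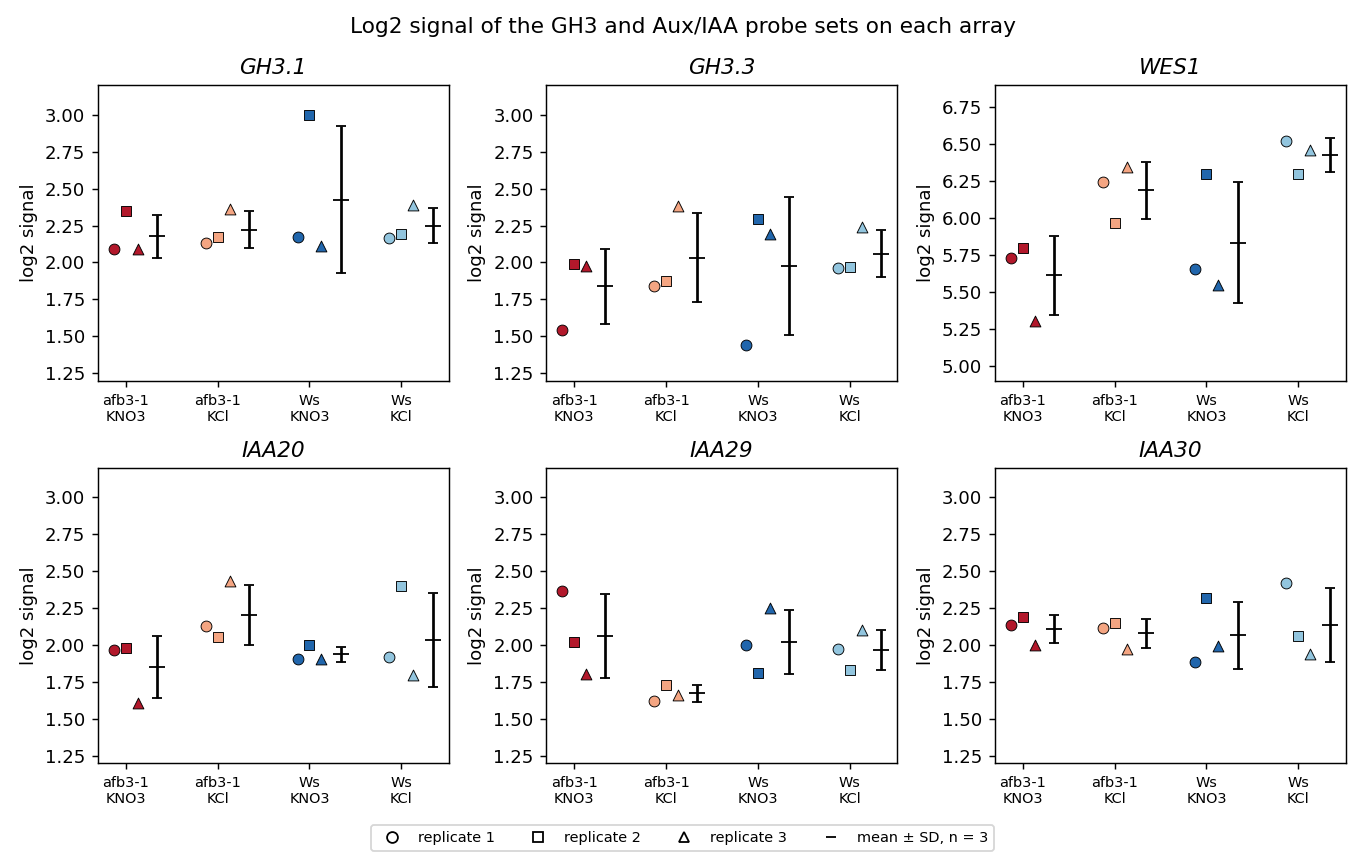
Log2 signal (y axis) of the 6 genes on each of the 12 arrays, by group (x axis); marker shapes give the replicate number, and bars beside the points give the mean ± SD (n = 3). Each panel spans 2 log2 units, starting at 4.9 for WES1 and at 1.2 for the others. WES1 is lower in KNO3 than in KCl on all arrays except replicate 2 of Ws KNO3 (6.30), and GH3.1 has 1 array (3.00, the same replicate) above all others.

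The Aux/IAA genes were dim, and none of the 3 passed for nitrate in either genotype. IAA20 and IAA30 encode unusual family members without the conserved domain II by which most Aux/IAA proteins bind the receptors. IAA20 had log2 signals of 1.97, 1.98 and 1.61 with KNO3 and 2.13, 2.05 and 2.43 with KCl in afb3-1. In Ws it had 1.91, 2.00 and 1.91 with KNO3 and 1.92, 2.40 and 1.80 with KCl. The groups did not overlap in afb3-1, where the difference was −0.35 ± 0.17 (SE, adjusted p = 0.495), and did overlap in Ws, where it was −0.10 ± 0.17 (SE, adjusted p = 0.864).

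IAA29, which is known as a target of light-regulated PIF transcription factors in shoots, had the opposite sign. In afb3-1 it had log2 signals of 2.37, 2.02 and 1.80 with KNO3, against 1.62, 1.73 and 1.66 with KCl, without overlap. In Ws it had 2.00, 1.81 and 2.25 with KNO3 and 1.97, 1.83 and 2.1 with KCl, which overlapped. The difference was 0.39 ± 0.15 (SE) in afb3-1, with an unadjusted p of 0.0284 and an adjusted p of 0.336, and 0.05 ± 0.15 (SE) in Ws. IAA30 had the narrowest range of the 6, from 1.88 to 2.42 over all arrays. Its group means were 2.11 ± 0.10 in afb3-1 KNO3, 2.08 ± 0.10 in afb3-1 KCl, 2.07 ± 0.23 in Ws KNO3 and 2.14 ± 0.25 in Ws KCl (SD, n = 3 each), and its nitrate difference was 0.03 ± 0.15 (SE) in afb3-1 and −0.07 ± 0.15 (SE) in Ws.

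Counted together, 0 of the 6 members passed for nitrate in afb3-1, where 2.76% of all probe sets were called, and 0 of 6 in Ws, where 2.89% were called (limma). At an unadjusted p under 0.05 there were 2 in afb3-1, against 11.1% of all probe sets (WES1 lower, as 5.86%, and IAA29 higher, as 5.25%). In Ws there was 1, against 13.3% (WES1 lower, as 7.23%). A linear model without variance moderation also called 0 in each genotype. In afb3-1 the KNO3 and KCl arrays did not overlap for 3 of 6 members, as for 17.0% of all probe sets. WES1 and IAA20 were lower without overlap, as were 8.84% of all probe sets, and IAA29 was higher, as were 8.19%. In Ws this was so for 0 of 6, against 17.3%. The median difference over the 6 was −0.12 in afb3-1 and −0.08 in Ws, against −0.0042 and −0.03 over all probe sets. The 95% confidence intervals of the members in the nitrate comparisons by genotype reached no further than −1.03 and 0.73 on the log2 scale.

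The difference of the nitrate responses, afb3-1 minus Ws, passed for 0 of 6 members and 0% of all probe sets (limma, 0 members and 2.92% of probe sets at an unadjusted p under 0.05). For WES1 it was 0.02 ± 0.28 (SE), with a 95% confidence interval of −0.60 to 0.64. The interval holds differences as large as the response itself. For IAA29 the difference was 0.33 (interval −0.15 to 0.81), for IAA20 −0.25 (−0.77 to 0.27) and for GH3.1 −0.22 (−0.85 to 0.41). For GH3.3 it was −0.11 (−0.83 to 0.60) and for IAA30 0.10 (−0.36 to 0.56). The adjusted p was 0.999 for all 6. With same-numbered arrays as a random block the WES1 interval narrowed to −0.44 to 0.48.

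**Figure D3:**
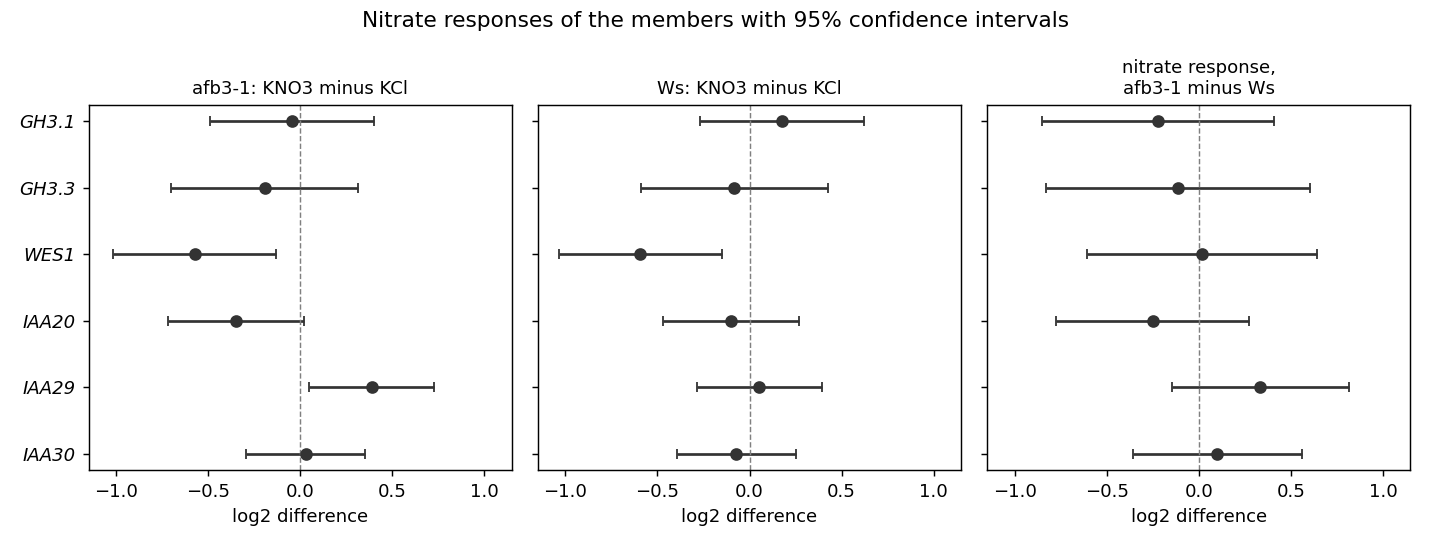
Log2 difference (x axis) of the 6 genes (y axis) for KNO3 minus KCl in afb3-1, the same in Ws, and the difference of these responses; points are limma estimates from 12 arrays and bars are 95% confidence intervals. The WES1 intervals lie below 0 in afb3-1 (−1.01 to −0.13) and in Ws (−1.03 to −0.15), the IAA29 interval lies above 0 in afb3-1 (0.05 to 0.73), and the intervals of the response differences all include 0.

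For afb3-1 against Ws within a treatment, 0 of 6 members and 0% of all probe sets passed in KNO3 and likewise in KCl (limma, 0 members at an unadjusted p under 0.05 in each, against 2.37% and 2.65% of all probe sets). The largest member difference in KCl was that of IAA29, −0.29 ± 0.15 (SE, unadjusted p = 0.0832). Its 3 afb3-1 KCl arrays lay below the 3 Ws KCl arrays, a separation that 4.38% of all probe sets showed in this direction. It was the 1 member of 6 whose genotypes did not overlap in KCl, against 6.85% of all probe sets in either direction, and in KNO3 there were 0 of 6, against 8.68% of all probe sets. In KNO3 the IAA29 difference was 0.04 ± 0.15 (SE).

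The WES1 difference between the genotypes was −0.22 ± 0.20 (SE) in KNO3 and −0.24 ± 0.20 (SE) in KCl. Without Ws KNO3 replicate 2 the value in KNO3 was 0.010. Averaged over the treatments its mean was 5.90 in afb3-1 and 6.13 in Ws, a difference of −0.23 ± 0.14 (SE, unadjusted p = 0.131, adjusted p = 1.000), and afb3-1 was below Ws in 5 of 6 same-numbered pairs. With these pairs as a random block the unadjusted p was 0.0485, rank 1106 by p among 22746 probe sets, and the adjusted p 0.977 (limma). In the fit without the block, 0 of 6 members and 0% of all probe sets passed over both treatments (limma, 0 members and 1.87% of probe sets at an unadjusted p under 0.05). GH3.1 was below Ws in 6 of 6 pairs, but by at most 0.08 in all of them except KNO3 replicate 2 (−0.65). The shares of all probe sets below Ws in as many pairs were not counted. The ranges of the shoot marker sum, given above, did not overlap between the genotypes in KNO3 and overlapped in KCl. In KNO3 the genotypes did not overlap for 8.68% of all probe sets. Each of the 3 shoot markers was also higher in afb3-1 without overlap in KNO3. The differences were 1.10 ± 0.35 (SE, limma unadjusted p = 0.0093) for RCA, 1.01 ± 0.47 (SE) for LHCB4.1 and 0.70 ± 0.45 (SE) for LHCB4.2. Of the 3, 0 passed in any genotype comparison, where 0% of all probe sets passed (limma). The part of the marker sum in the member differences was not tested.

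For GH3.1 the remaining genotype differences were −0.25 ± 0.20 (SE) in KNO3 and −0.03 ± 0.20 (SE) in KCl, and for GH3.3 −0.14 ± 0.23 (SE) and −0.03 ± 0.23 (SE). IAA20 had −0.09 ± 0.17 (SE) in KNO3 and 0.17 ± 0.17 (SE) in KCl. IAA30 had 0.04 ± 0.15 (SE) and −0.06 ± 0.15 (SE). None of these reached an unadjusted p of 0.05.

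Ordered by group mean, WES1 ran from afb3-1 KNO3 (5.61 ± 0.27 SD) through Ws KNO3 (5.83 ± 0.41) and afb3-1 KCl (6.19 ± 0.19) to Ws KCl (6.43 ± 0.12), and the arrays of each neighbouring pair of groups overlapped. For IAA29 the order ran from afb3-1 KCl (1.67 ± 0.06 SD) through Ws KCl (1.97 ± 0.13) and Ws KNO3 (2.02 ± 0.22) to afb3-1 KNO3 (2.06 ± 0.29), and only the first step was without overlap. IAA20 ran from afb3-1 KNO3 (1.85 ± 0.21 SD) through Ws KNO3 (1.94 ± 0.05) and Ws KCl (2.04 ± 0.32) to afb3-1 KCl (2.2 ± 0.20). GH3.3 ran from afb3-1 KNO3 (1.84 ± 0.25 SD) to Ws KCl (2.06 ± 0.16), and GH3.1 from afb3-1 KNO3 (2.18 ± 0.15) to Ws KNO3 (2.43 ± 0.49). Neighbouring groups of IAA20, GH3.3, GH3.1 and IAA30 overlapped throughout.

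Other genes of the auxin pathway were taken from lists chosen with earlier results of these data known. With a named probe set were 5 GH3 genes, 7 Aux/IAA genes, 6 genes of auxin synthesis and conjugation and 4 auxin-inducible or lateral root genes, 22 in all with the 6 members. No probe set was named for the receptors (AFB3 among them), auxin response factors, transporters and SAUR genes listed, and they were not analysed here. The annotation used gave no gene for 8730 probe sets, so a gene without a named probe set may still be on the array. Of the 22, 0 rose and 1 fell in afb3-1, where 1.79% of all probe sets rose and 0.967% fell. In Ws 0 rose and 1 fell, where 1.85% rose and 1.05% fell. It was HAT2 in both, a homeodomain-leucine zipper gene induced early by auxin and by shade.

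HAT2 (AT5G47370) had log2 signals of 6.27, 6.12 and 6.10 with KNO3 and 7.18, 6.77 and 7.02 with KCl in afb3-1. In Ws it had 6.39, 6.44 and 6.12 with KNO3 and 6.82, 6.89 and 6.95 with KCl. Every KNO3 array lay below every KCl array of either genotype. The share of all probe sets separated in this way over both genotypes is not given here. HAT2 fell by 0.83 ± 0.13 (SE) on the log2 scale in afb3-1 (adjusted p = 0.00380) and by 0.57 ± 0.13 (SE) in Ws (adjusted p = 0.0347). The afb3-1 call held under every alternative run (adjusted p up to 0.0247). The Ws call was lost under several, with an adjusted p of 0.0548 after median centring, 0.0626 without variance moderation, 0.11 with only Ws arrays, 0.0948 without both KCl arrays numbered 3, and up to 0.164 without single arrays. The arrays whose removal ended it were all 6 of Ws and replicates 2 and 3 of afb3-1 KNO3. The difference of the 2 responses was −0.25 ± 0.18 (SE, adjusted p = 0.999).

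Over both genotypes 2 of the 22 auxin genes fell, WES1 and HAT2 (−0.70 ± 0.09 SE, adjusted p = 0.000533), and 0 rose, where 3.19% of all probe sets fell and 3.47% rose. The HAT2 call held under every alternative run, while that of WES1 was lost under 10 of 22, among them the random block on pairs (adjusted p = 0.0614). The median over the 22 was −0.09, against −0.02 over all probe sets. Of the 22, 15 had a value below 0, the side on which the median of all probe sets also lay.

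Among the other GH3 genes, GH3.17, which conjugates auxin to glutamate, had a nitrate difference of −0.33 ± 0.28 (SE) in afb3-1 and 0.01 ± 0.28 (SE) in Ws, and GH3.9 −0.01 ± 0.12 and −0.02 ± 0.12. Among the other Aux/IAA genes (IAA18, IAA31, IAA33 and IAA34), the smallest p for nitrate was that of IAA34 in afb3-1 (0.27 ± 0.13 SE, adjusted p = 0.467) and of IAA31 in Ws (0.34 ± 0.26 SE, adjusted p = 0.662). Over both genotypes it was IAA34, with 0.19 ± 0.09 (SE, adjusted p = 0.306). None of these passed, and of the 7 Aux/IAA genes with a named probe set 0 passed in any comparison.

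In auxin synthesis and conjugation, YUC6, a flavin monooxygenase of auxin synthesis, had a nitrate difference of 0.42 ± 0.16 (SE) in afb3-1 (adjusted p = 0.312). UGT74D1, which glucosylates auxins, had −0.67 ± 0.35 (SE) in Ws (adjusted p = 0.451) and −0.71 ± 0.24 (SE) over both genotypes (adjusted p = 0.131). Over both genotypes it passed under 2 alternatives, with −0.89 and an adjusted p of 0.00883 with array weights, and −0.99 and an adjusted p of 0.0202 without both KCl arrays numbered 3. Outside the 6 members, the gene with the smallest p of each list for the difference of the responses was GH3.17 (−0.34), IAA33 (0.54), YUC11 (0.26) or HAT2. None of the 22 passed for any comparison of genotypes. Among the 16 genes that are not members, those with the smallest p of each list were, in KNO3, GH3.17 (−0.17), IAA31 (−0.40), YUC6 (0.26) and LBD29 (−0.24). In KCl they were GH3.17 (0.16), IAA33 (−0.47), YUC11 (−0.23) and LBD29 (−0.42), and over both treatments GH3.17 (−0.0066), IAA31 (−0.23), YUC2 (−0.14) and LBD29 (−0.33, unadjusted p = 0.0385).

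**Figure D4:**
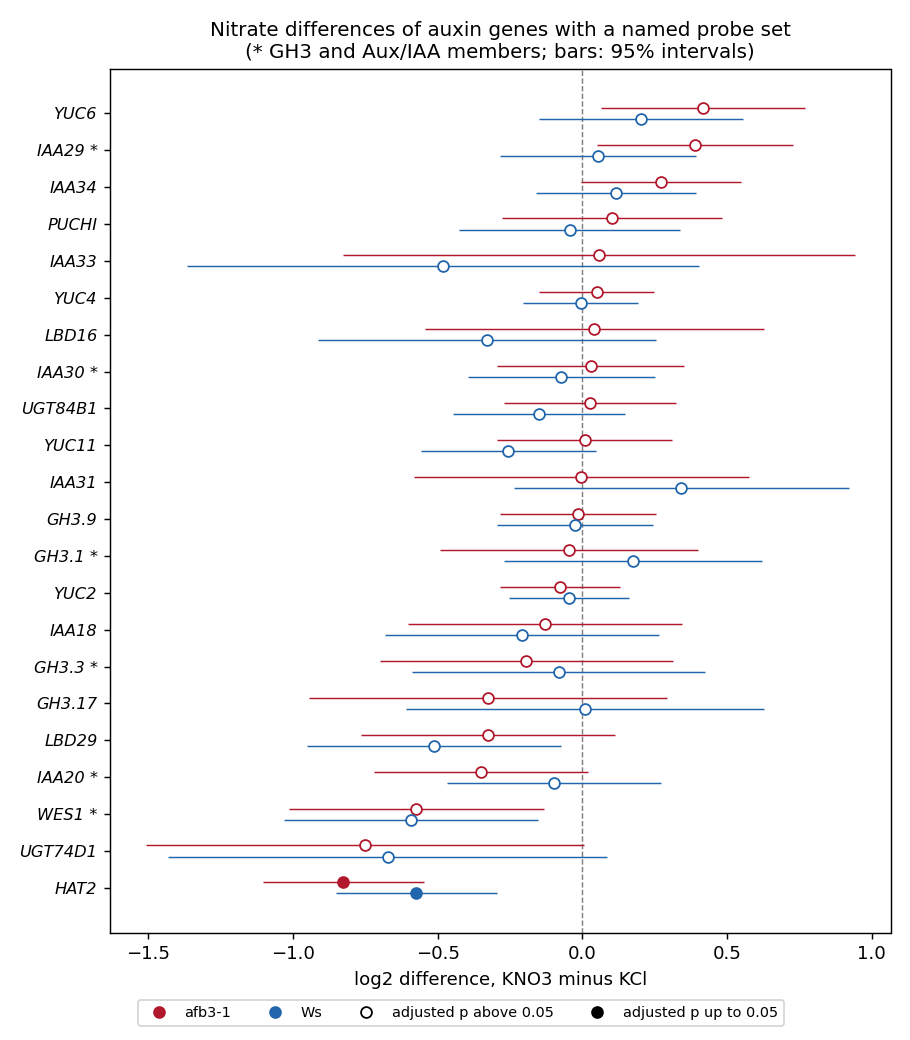
Log2 difference, KNO3 minus KCl (x axis), of the 22 auxin genes with a named probe set (y axis, sorted by the afb3-1 value) in afb3-1 (red) and Ws (blue); bars are 95% confidence intervals, filled points passed an adjusted p of 0.05, and asterisks mark the 6 members. HAT2 has the only filled points, and WES1 lies next to UGT74D1 among the lowest values, at −0.57 and −0.59.

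For each member, the genes most like it were those with the highest Pearson r of log2 signal over the 12 arrays, among 13512 other probe sets with 1 named gene. The arrays share treatments and replicate structure, and the r values are descriptions. WES1 was closest to AT3G26760 (r = 0.934, Spearman rho = 0.923), AT3G01750 (0.929) and AT5G67430 (0.905). AT3G26760 had log2 signals of 4.98, 5.07 and 4.56 in afb3-1 KNO3, 5.78, 5.44 and 5.77 in afb3-1 KCl, 4.71, 5.19 and 4.71 in Ws KNO3 and 5.89, 5.79 and 5.83 in Ws KCl. Like WES1, it was highest within Ws KNO3 on replicate 2 and lowest within afb3-1 KNO3 on replicate 3. IAA29 was closest to AT4G14480 (0.897), AT5G54050 (0.886) and AT5G38300 (0.880), and IAA20 to AT5G25960 (0.887), AT2G45840 (0.875) and AT1G34842 (0.873). All of these except AT5G38300 were dim, below a log2 signal of 2.32 on every array. AT5G54050 lay between 0.80 and 1.17 and AT5G25960 between 0.92 and 1.29.

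GH3.3 was closest to AT4G25370 (0.919), AT5G56020 (0.90) and AT4G08850 (0.850), and IAA30 to AT4G24330 (0.890), AT1G75640 (0.878) and AT1G69020 (0.867). GH3.1 was closest to AT2G25355 (r = 0.877, Spearman rho = 0.671), AT4G26210 (0.867, rho = 0.427) and LpxB (0.847, rho = 0.559). For GH3.1 the rank correlations were lower than the Pearson values, and the single high array (3.00) lay above the narrow range of the others. No member was among the closest genes of another.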

How the data were processed

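Biotin-labelled cRNA was made from total RNA with an Affymetrix 3′ IVT kit, per the labels' protocols. The log2 signals of 12 arrays were used as deposited. For background correction, normalization and probe summary, the authors' methods are not stated in these sources. The 64 control probe sets were left out. Probe sets were named by the annotation of the array platform, with symbols brought up to date from the TAIR10.1 RefSeq table by Entrez identifier. The members and lists were chosen with earlier results of these data known.

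One mean per group was fitted to 12 arrays with limma 3.58.1 (R 4.3.3), with moderated variances (8 residual and 3.20 prior degrees of freedom). Tests were two-sided, adjusted by Benjamini-Hochberg over 22746 probe sets, with a threshold of 0.05. The number of arrays limits the precision. Text names the members, list genes other than members that passed the threshold or, where none passed, the one of these with the smallest p per list, and the 3 genes most like each member. The procedure was tested on simulated data, with known changes for nitrate in Ws only. These data were drawn without the deviations that same-numbered arrays shared, so they cannot test the effect of that pairing.

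Deviations of same-numbered arrays correlated by 0.301 to 0.661 between genotypes within a treatment, above 0.1 in 6 of 6 pairs. For this reason some alternatives treated them as pairs, by the data and not the labels. Between treatments the correlations were −0.281 to 0.542, with replicate 2 at 0.527 in afb3-1 and 0.542 in Ws. The labels do not say whether a number marks a shared batch. Alternatives were 2 normalizations, a filter on dim probe sets, replicate blocks (consensus correlation 0.380 within a treatment), fewer groups, other variance models, array weights, an adjusted p of 0.1 and left-out arrays.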

Additional observations from a re-analysis of the deposited data

How the results depend on the processing

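Precision was limited by 3 arrays per group. For 5 of the 6 members the signals were dim, where fold changes can be understated. The count of members past the threshold was 0 for nitrate in afb3-1, for the difference of responses and for the 3 genotype comparisons under every alternative run, replicate blocks included. For nitrate in Ws it was 0, and 0 to 1 without single arrays (WES1 without Ws KNO3 replicate 2). For nitrate over both genotypes it was 1, and 0 to 1 without single arrays. It was also 0 with the replicate block within treatment, on the means of same-numbered pairs, without variance moderation (WES1 adjusted p = 0.0832) and without both KCl arrays numbered 3 (adjusted p = 0.0857). The block changed no other member's call, and the filter on dim probe sets left WES1 alone of the 6. Of 877 member values under alternatives, 805 kept sign and call and 61 changed sign, all for differences of at most 0.25 on the log2 scale as reported. Replicate blocks, other variance models and the removal of arrays outside the groups compared leave a difference unchanged, so those values could not change sign. Of 42 member results, 28 changed sign under some alternative. The cause was not tested.

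Sign changes for nitrate were as follows. In Ws, GH3.3 was 0.058 with array weights and 0.0093 without both KCl arrays numbered 3, and GH3.9 was 0.025 after quantile normalization. In afb3-1, GH3.1 was 0.026 and IAA30 −0.026 without both KCl arrays numbered 3, and with array weights GH3.3 was 0.00023 and IAA30 −0.048. Over both genotypes GH3.3 was 0.029 with array weights. For afb3-1 minus Ws in KCl, GH3.1 was 0.0016 and GH3.3 0.029 after quantile normalization, and IAA20 was −0.068 without both KCl arrays numbered 3. In KNO3, IAA29 was −0.17 with array weights and IAA30 −0.0019 after quantile normalization. Over both treatments IAA20 was −0.063 with array weights and −0.076 without both KCl arrays numbered 3.

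Without single arrays, ranges that cross 0 were, for nitrate in Ws, −0.11 to 0.33 (GH3.1), −0.24 to 0.18 (GH3.3), −0.22 to 0.081 (IAA20), −0.061 to 0.16 (IAA29), −0.20 to 0.068 (IAA30) and −0.076 to 0.012 (GH3.9). In afb3-1 they were −0.13 to 0.026 (GH3.1) and −0.026 to 0.083 (IAA30), and over both genotypes −0.077 to 0.14 (GH3.1) and −0.085 to 0.049 (IAA30). For the difference of responses they were −0.38 to 0.065 (GH3.1), −0.38 to 0.063 (GH3.3), −0.13 to 0.25 (WES1) and −0.039 to 0.23 (IAA30). For afb3-1 minus Ws in KCl they were −0.10 to 0.041 (GH3.1), −0.20 to 0.070 (GH3.3), −0.16 to 0.082 (IAA30) and −0.79 to 0.033 (IAA33). In KNO3 they were −0.41 to 0.037 (GH3.1), −0.40 to 0.020 (GH3.3), −0.37 to 0.010 (WES1), −0.15 to 0.037 (IAA20), −0.11 to 0.17 (IAA29), −0.048 to 0.17 (IAA30) and −0.44 to 0.12 (GH3.17). Over both treatments they were −0.22 to 0.0041 (GH3.1), −0.020 to 0.13 (IAA20), −0.058 to 0.063 (IAA30) and −0.14 to 0.14 (GH3.17).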
